A study of Mus musculus with 8 samples.

Results

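The transforming growth factor-β (TGF-β), bone morphogenetic protein (BMP) and activin pathway was followed through 59 genes in pancreatic islets of mice with and without Notch activation in β cells. The genes were taken by symbol from the count table, for their place in the pathway and with earlier results of these data known, and comprised ligands, receptors, Smads, inhibitors, extracellular regulators and target genes. All 59 symbols were among the 32531 in the table, and 57 passed the count minimum of 10 counts in at least 4 of the 8 libraries. Control islets came from 4 mice that carried RIP-Cre (Cre recombinase under the rat insulin promoter, active in β cells) and Rosa26-rtTA (a Cre-dependent, doxycycline-responsive activator) but no tetO-NICD. The 4 β-tetO-NICD mice carried the same alleles together with tetO-NICD, a transgene for the Notch1 intracellular domain, the active form of the receptor. Both groups were of a mixed C57BL/6J, 129X1/SvJ and BALB/c background and drank doxycycline (Dox) for 8 weeks. Whole islets were sequenced, so the RNA came from all islet cell types and from adhering exocrine tissue, although the transgene was driven in β cells. Ages at collection and any pooling of animals are not given in the sources used here.

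In this pathway, dimeric ligands bring together type I and type II receptor kinases, and the type I receptor phosphorylates receptor-regulated Smads. TGF-β and activin ligands act mainly through Smad2 and Smad3, and BMPs mainly through Smad1, Smad5 and Smad9. Both branches share Smad4, which carries the complexes to DNA, and are held back by Smad6, Smad7, ubiquitin ligases, corepressors and secreted antagonists. In islets the pathway is known for parts in endocrine differentiation, β cell maturity, insulin secretion and fibrosis.

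Total counts were between 21701223 and 26413146 per library. The Notch1 level separated the groups, at 56.9 ± 10.7 CPM (counts scaled to library size by TMM; SD, n = 4) in controls and at 1030 ± 331 CPM in β-tetO-NICD islets. Transcripts of β, α and δ cells were present in every library. The summed level of 7 β cell markers ranged from 154000 to 196000 CPM in controls and from 71500 to 171000 CPM in β-tetO-NICD islets. The sum of 5 α cell markers was higher without overlap, at 12100 to 43200 against 55500 to 70500 CPM. The sum of the δ cell markers Sst and Hhex overlapped, at 2280 to 6250 against 4790 to 13800 CPM, and Hhex passed the test (log2 fold change 1.01, adjusted p = 0.0436). No marker of these lists was at 0 in all libraries, and the part of cell composition in the results for the pathway was not tested. The libraries also differed by transcript length: over 14655 genes, Spearman's rho of a library's deviation from the mean of the 8 against length was 0.434, 0.487, −0.173 and 0.513 in controls 1 to 4. In β-tetO-NICD libraries, numbered 1, 2, 4 and 5 in the table, rho was 0.468, −0.530, −0.364 and −0.525. Long genes were thus relatively high in 3 controls and 1 β-tetO-NICD library and low in the others, so this trend is partly shared with the genotype. Eif2s3y, a Y-linked gene, was counted 1300 and 1527 times in controls 2 and 4 and 1465 times in library 5 of the β-tetO-NICD group, with no more than 1 count elsewhere, although the methods name male mice as the source for expression work.

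Of the 57 tested pathway genes, 6 rose and 2 fell in β-tetO-NICD islets at an adjusted p under 0.05, which is 14.0% of the genes tested, beside 6.76% of all 15082 tested genes (4.19% higher and 2.57% lower). This gap was not seen in all fits: by DESeq2 19.3% of the pathway genes and 18.2% of all genes were called, and without β-tetO-NICD library 1 33.9% and 33.2%. Tgfb1, Gdf11, Smad3, Id1, Id2 and Id3 rose, and Acvr1c and Bmp1 fell. The calls rest on the quasi-likelihood test of edgeR, with Benjamini-Hochberg adjusted p values over all tested genes, as do all adjusted p values below unless another test is named. Levels of the 2 groups did not overlap for 12 of the 57 genes (21.1%), beside 16.1% of all tested genes. Of the 12, 9 lay higher and 3 lower, where the shares over all genes were 8.22% and 7.92%. The median log2 difference was 0.11 over the pathway genes and 0.00 over all tested genes. As these are whole islets, fewer cells of a type and less RNA per cell cannot be told apart in any of the values.

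**Figure D1:**
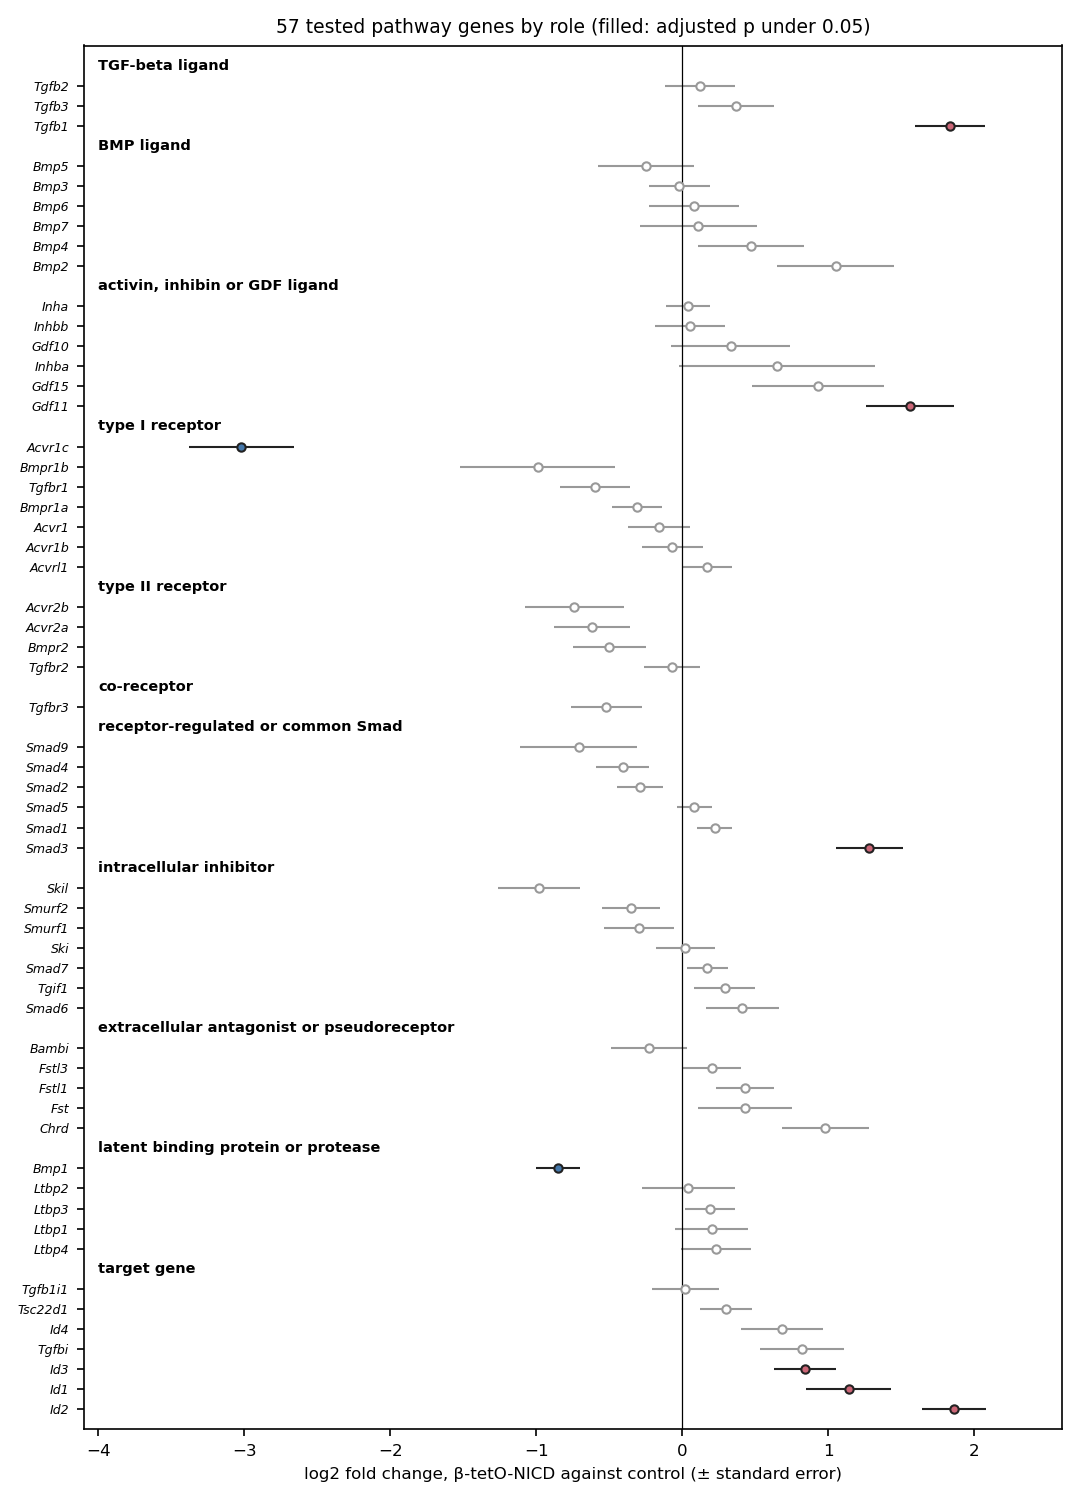
Log2 fold change of each of the 57 tested pathway genes in β-tetO-NICD against control islets (x axis, bars ± standard error of the fit), ordered by role. Filled points mark the 6 genes that rose and the 2 that fell at an adjusted p under 0.05, with the target genes all at or right of 0.02 and Acvr1c far to the left at −3.02.

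NICD acts with RBPJ, a factor that binds TGGGAA, so the promoters of the called genes were read for these letters and for GGCGCC, a BMP-responsive element known from Id genes. RefSeq promoters on GRCm38.p6, 250 bases before to 50 bases after a start site, were present for 43 of the 59 genes. The stretches of 250 bases before the start are given for the called genes with a match and for Tgfb1 and Acvr1c, which had large changes without one, 5′ to 3′ on the gene's strand, with a matched motif in capitals.
Smad3 promoter (chr9:63757995-63758244, minus strand): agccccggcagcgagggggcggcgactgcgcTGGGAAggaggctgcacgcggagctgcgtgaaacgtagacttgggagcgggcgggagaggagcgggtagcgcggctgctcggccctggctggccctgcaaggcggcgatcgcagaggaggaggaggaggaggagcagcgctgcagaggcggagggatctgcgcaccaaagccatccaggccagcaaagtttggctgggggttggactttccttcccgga
Id2 promoter (chr12:25096093-25096342, minus strand): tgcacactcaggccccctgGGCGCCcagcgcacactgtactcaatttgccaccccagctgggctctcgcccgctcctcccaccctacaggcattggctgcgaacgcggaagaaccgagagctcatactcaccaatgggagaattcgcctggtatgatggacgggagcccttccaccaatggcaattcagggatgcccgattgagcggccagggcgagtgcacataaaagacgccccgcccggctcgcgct
Tgfb1 promoter (chr7:25686752-25687001, plus strand): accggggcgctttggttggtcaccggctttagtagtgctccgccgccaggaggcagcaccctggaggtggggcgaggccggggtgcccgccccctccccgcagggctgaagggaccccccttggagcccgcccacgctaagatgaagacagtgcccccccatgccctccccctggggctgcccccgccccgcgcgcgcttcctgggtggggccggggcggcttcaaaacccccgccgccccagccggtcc
Acvr1c promoter (chr2:58357759-58358008, minus strand): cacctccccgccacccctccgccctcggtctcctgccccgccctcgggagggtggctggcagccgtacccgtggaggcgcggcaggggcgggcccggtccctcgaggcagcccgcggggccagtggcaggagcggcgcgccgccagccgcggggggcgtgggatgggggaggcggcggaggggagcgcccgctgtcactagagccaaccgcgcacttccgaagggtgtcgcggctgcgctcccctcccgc

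TGGGAA lay 219 bases before the Smad3 start and GGCGCC 231 bases before the Id2 start. The letters of neither motif were in the Tgfb1, Gdf11, Id3 or Acvr1c windows, searched on both strands, and Id1 and Bmp1 were not among the promoters used. A further Acvr1c promoter, at chr2:58324808-58325057 on the minus strand, is not shown and also had no match. TGGGAA was in the promoters of 12 of the 43 genes (27.9%), beside 28.3% of 27025 genes with a promoter of the same length. Counted per promoter, it was in 19.7% of the 61 of these genes, beside 25.6% of all 32851. GGCGCC was in 16 of the 43 (37.2%), beside 13.4% of all genes, and the promoters of the pathway genes had a median GC content of 65.0% against 52.7%. GTCTAGAC, a palindrome bound by Smad3 and Smad4, was in the Smad6 promoter alone (2.33%, beside 0.248%). These matches describe letters and not binding sites.

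Among the ligands, Tgfb1 and Gdf11 rose, and the BMP ligands did not pass the test. Tgfb1 encodes TGF-β1, which is secreted in a latent complex. Its levels were 8.90, 7.47, 7.48 and 6.37 CPM in controls 1 to 4, against 16.2, 31.7, 26.3 and 33.6 CPM in libraries 1, 2, 4 and 5 of the β-tetO-NICD group. Every β-tetO-NICD library lay above every control, and library 1 was the lowest of its group. The means were 7.56 ± 1.04 and 26.9 ± 7.80 CPM, a log2 fold change of 1.83 ± 0.24 (SE; adjusted p = 0.00260). The gene (ENSMUSG00000002603) lies on chromosome 7 of GRCm38 from 25687002 to 25705077 on the plus strand. The related ligands did not pass the test. Tgfb2 had 4.70, 6.55, 3.56 and 6.58 CPM in controls, against 5.99, 5.46, 4.95 and 6.80 CPM in β-tetO-NICD islets, with a log2 difference of 0.12 (adjusted p = 0.756). Tgfb3 differed by 0.37 on the log2 scale (adjusted p = 0.334).

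Scaled to the longest annotated transcript, the level of Tgfb1 went from 2.94 to 10.5 CPM per kb, whereas Tgfb2 was at 1.05 and 1.13 and Tgfb3 at 1.05 and 1.35 CPM per kb. Within each library the ratio of Tgfb1 to Tgfb2 CPM was 1.53 ± 0.554 (SD, n = 4) in controls and 4.69 ± 1.37 with NICD. No overlap was seen in this ratio, which was chosen after the values were seen and was not tested. Macrophages, which make TGF-β1, were followed through 8 marker genes. Their summed level was also higher without overlap, from 130 to 182 CPM in controls and from 197 to 292 CPM in β-tetO-NICD islets. C1qa was the largest part of that sum, with means of 77.6 and 150 CPM. Cd14 and C1qa passed the test (log2 fold changes 1.73 and 0.95). The other 6 did not, with log2 differences of 0.75 for C1qb, 0.41 for C1qc, 0.09 for Csf1r, 0.00 for Cd68, −0.38 for Adgre1 and −1.15 for Itgam, and no marker of the list was at 0 in all libraries. The sum of 5 lymphocyte markers was also higher without overlap, at 16.6 to 27.7 against 28.3 to 33.5 CPM, and neither of the 2 tested passed. The authors reported islet macrophages as unchanged in level and distribution in β-tetO-NICD mice. The part of macrophage or lymphocyte RNA in the Tgfb1 result was not tested.

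Gdf11 encodes a secreted relative of myostatin that signals through activin receptors. It was low in all islets, with 1.15, 1.31, 0.673 and 1.01 CPM in controls, against 2.09, 3.19, 3.72 and 3.27 CPM in β-tetO-NICD libraries. The groups did not overlap, and controls held only 17 to 31 counts of this gene. From 1.04 ± 0.271 to 3.07 ± 0.692 CPM, the log2 fold change was 1.56 with a standard error of 0.30 (adjusted p = 0.0166). Gdf11 (ENSMUSG00000025352) lies on chromosome 10 from 128882295 to 128891718 on the minus strand. The call was lost when control 4, β-tetO-NICD library 2 or β-tetO-NICD library 4 was left out, with adjusted p values of 0.0540, 0.0583 and 0.0611 and log2 fold changes of 1.56, 1.55 and 1.47.

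The other activin, inhibin and GDF ligands had positive log2 differences between 0.04 and 0.93, none past the threshold. Inha, the inhibin α subunit, was the highest of them per kb, with 16.7, 19.1, 15.5 and 17.3 CPM in controls, against 16.3, 15.5, 18 and 20.5 CPM in β-tetO-NICD islets. Its groups overlapped, with a log2 difference of 0.04 (adjusted p = 0.879). Inhbb, the subunit of activin B, differed by 0.05 and Inhba, the subunit of activin A, by 0.65 with a standard error of 0.67 at 1 to 21 counts per library. Gdf10, a BMP3-like ligand, had 8.76, 32.1, 8.55 and 12.4 CPM in controls, against 14.8, 17.4, 22.4 and 23.1 CPM in β-tetO-NICD islets, and control 2 was the highest of the 8 libraries. Its log2 difference was 0.33 (edgeR, adjusted p = 0.580), and 0.98 without control 2 (edgeR, adjusted p = 0.0618). Gdf15, a stress-induced cytokine, differed by 0.93 (adjusted p = 0.187) with overlapping groups.

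None of the 6 BMP ligand genes passed the test, and 1 of them had an unadjusted p under 0.05, as had 4769 of all 15082 tested genes. Bmp3, an atypical BMP that can oppose the others, had 7.70, 8.49, 10.6 and 9.38 CPM in controls, against 11.8, 6.72, 8.86 and 8.36 CPM in β-tetO-NICD islets, a log2 difference of −0.02. Bmp7 had 6.36, 2.70, 3.56 and 3.17 CPM in controls, against 7.51, 2.97, 2.46 and 4.18 CPM in β-tetO-NICD islets, with library 1 of each group the highest. The sum of 10 acinar markers was also highest in library 1 of each group (69900 and 106000 CPM), and its part in the Bmp7 level was not tested. Bmp2 had the largest difference of the group at 1.05 (standard error 0.40, adjusted p = 0.119), from 0.639 ± 0.337 to 1.34 ± 0.366 CPM. Control 2, at 1.14 CPM, lay inside the β-tetO-NICD range of 0.896 to 1.70 CPM, whereas the other controls were at 0.415 to 0.514 CPM. Bmp4, Bmp5 and Bmp6 differed by 0.47, −0.25 and 0.08.

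**Figure D2:**
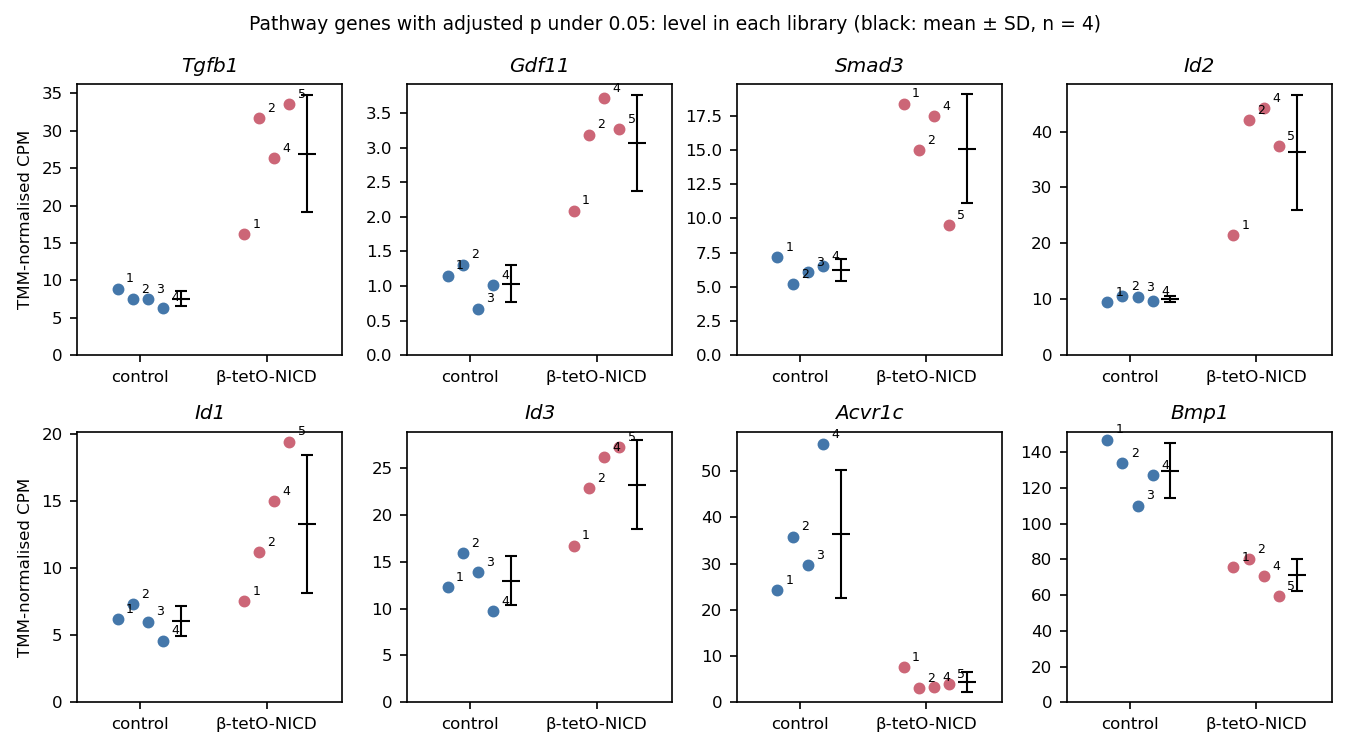
Level in TMM-scaled CPM (y axis, from 0) of the 8 pathway genes with an adjusted p under 0.05 in each control (blue) and β-tetO-NICD (red) library, numbered as in the text, with the mean ± SD (n = 4) in black. The groups do not overlap in any panel, and β-tetO-NICD library 1 lies nearest to the controls for Tgfb1, Gdf11, Id1, Id2, Id3 and Acvr1c.

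The receptors gave the largest single change of the pathway. Acvr1c encodes ALK7, a type I receptor for activin B and related ligands that is expressed in β cells and known for restraining insulin secretion. Its levels were 24.3, 35.8, 29.6 and 55.8 CPM in controls 1 to 4, against 7.65, 3.01, 3.32 and 3.98 CPM in libraries 1, 2, 4 and 5 of the β-tetO-NICD group. The lowest control, at 24.3 CPM, was well above the highest β-tetO-NICD library, at 7.65 CPM. The means were 36.4 ± 13.8 and 4.49 ± 2.14 CPM, which is 8.12-fold lower, with a log2 fold change of −3.02 ± 0.36 (SE; adjusted p = 0.00170). Acvr1c (ENSMUSG00000026834) lies on chromosome 2 from 58267453 to 58357895 on the minus strand. Its span overlaps 2 genes annotated on the opposite strand, Gm13544 and Gm13545, and the strand setting of the counting is not given in the sources used here.

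Acvr1b encodes ALK4, the type I receptor that shares ligands with ALK7, and differed by −0.07 on the log2 scale (adjusted p = 0.828). The ratio of Acvr1c to Acvr1b CPM, chosen after the values were seen and not tested, was 0.771 ± 0.310 in controls and 0.101 ± 0.0388 in β-tetO-NICD islets. Per kb, Acvr1c stood at 3.97 CPM in controls and at 0.490 CPM after Notch activation, below Bmpr1a, Acvr1b, Tgfbr1, Acvr1 and Acvrl1 in both groups. Of the 7 β cell markers, Slc2a2, the glucose transporter of mouse β cells, fell with a log2 fold change of −1.80 (adjusted p = 0.0331), the other 6 did not pass, and the summed marker level overlapped between the groups. The part of β cell content in the Acvr1c result was not tested.

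Apart from Acvr1c, no receptor passed the test, although 11 of the 12 receptor and co-receptor genes had negative log2 differences (8 of the 12 with an offset for transcript length). The exception was Acvrl1 (ALK1, a receptor known from endothelial cells) at 0.17. Bmpr1a, a type I receptor for BMPs, had 86.6, 87.9, 76.4 and 92.7 CPM in controls, against 91, 65.8, 66.1 and 54 CPM in β-tetO-NICD islets, a difference of −0.31 (adjusted p = 0.231). Tgfbr1, the type I receptor for TGF-β, had 55.3, 58, 47.5 and 73.5 CPM in controls, against 56.5, 36.5, 36.4 and 25 CPM in β-tetO-NICD islets, a difference of −0.60 (adjusted p = 0.131). In both genes β-tetO-NICD library 1 lay among the controls and the other 3 libraries below them.

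The type II receptors overlapped between the groups as well. Bmpr2 had 52.5, 55.5, 34.8 and 58.6 CPM in controls, against 51.1, 25.2, 28 and 38 CPM in β-tetO-NICD islets (log2 difference −0.50, adjusted p = 0.191). Acvr2a had 27, 36, 26 and 35.1 CPM in controls, against 31.3, 18.2, 18.7 and 12.6 CPM in β-tetO-NICD islets (log2 difference −0.62, adjusted p = 0.140). In Acvr2a library 1 again lay among the controls and the others below them, whereas in Bmpr2 library 5 was also above control 3. Tgfbr2, the type II receptor for TGF-β, differed by −0.07 and Acvr2b by −0.74, both with overlapping groups. Tgfbr3 (betaglycan), a co-receptor that presents TGF-β and binds inhibin, had 40.9, 44.3, 22.4 and 31.7 CPM in controls, against 31.8, 20.1, 20.1 and 25.3 CPM in β-tetO-NICD islets, a difference of −0.52 (adjusted p = 0.169). Bmpr1b and Acvr1 differed by −0.99 and −0.16.

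The level of most receptors other than Acvr1c differed between libraries in parallel with their transcript length trend, which is confounded with the genotype, and the part of that trend in the receptor levels was not tested. The 12 receptor genes have a median longest transcript of 5720 bases, against 4410 bases for the 57 tested pathway genes. The differences of single receptors were not ordered by length. Bmpr2, at 12899 bases, had a log2 difference of −0.50, and of 0.13 with an offset for length. Acvr2b, at 3175 bases, was at −0.74, and at −0.76 with the offset. Bmpr1b, at 5349 bases, was at −0.99 and −0.81, and Tgfbr2, at 8092 bases, at −0.07 and 0.39. These genes were picked after their values were seen. Without Acvr1c, the median deviation of the other 11 receptors from the control mean was 0.09, 0.22, −0.28 and 0.08 on the log2 scale in controls 1 to 4. It was 0.05 in β-tetO-NICD library 1 and −0.66 in each of the other 3. Acvr1c itself was at −2.11, −3.32, −3.20 and −2.97 in the β-tetO-NICD libraries, and so was also low in library 1. When β-tetO-NICD library 1 was left out, 7 of the 12 receptor genes passed the test as lower, in a fit that called 33.2% of all tested genes. With an offset for the length trend in the fit, the median of the 12 receptors was −0.19 in place of −0.51, 8 of the 12 were negative and Acvr1c (log2 fold change −2.60, adjusted p = 0.000262) was the only one called.

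**Figure D3:**
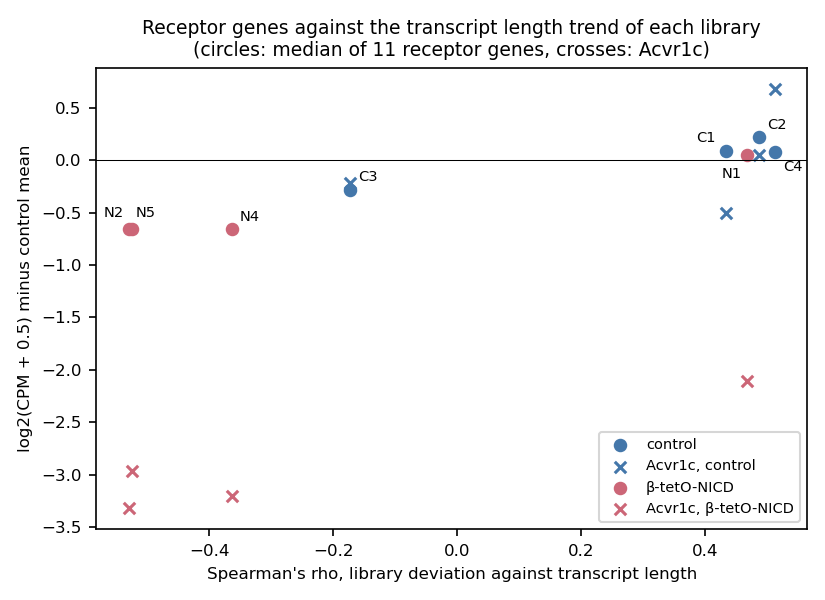
Each library's correlation of its deviation with transcript length (x axis, Spearman's rho across genes) against the deviation of receptor genes from the control mean (y axis, log2 of CPM + 0.5). Circles give the median of 11 receptors, near 0 in the libraries with positive rho and −0.66 in β-tetO-NICD libraries 2, 4 and 5, whereas the crosses for Acvr1c are low in all 4 β-tetO-NICD libraries (C, control; N, β-tetO-NICD).

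Smad3, which carries TGF-β and activin signals to DNA, rose alone among the Smads. Its levels were 7.15, 5.19, 6.05 and 6.53 CPM in controls, against 18.4, 15, 17.5 and 9.52 CPM in β-tetO-NICD libraries. The groups did not overlap, and library 5 was the lowest of the β-tetO-NICD libraries. The means were 6.23 ± 0.825 and 15.1 ± 3.99 CPM, with a log2 fold change of 1.28 ± 0.23 (SE; adjusted p = 0.0117). Smad3 (ENSMUSG00000032402) lies on chromosome 9 from 63646767 to 63757994 on the minus strand. Its promoter holds the TGGGAA match. Smad2, its partner in the same branch, differed by −0.29 (adjusted p = 0.245). The ratio of Smad3 to Smad2 CPM was 0.266 ± 0.0334 in controls and 0.777 ± 0.0789 in β-tetO-NICD islets, without overlap, and was chosen after the values were seen and not tested.

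The BMP-branch Smads and the common Smad did not pass the test. Smad5, a BMP-branch Smad, had 59.8, 67.6, 62 and 68.4 CPM in controls, against 75.8, 66.2, 65.4 and 65.8 CPM in β-tetO-NICD islets (log2 difference 0.08). Smad4 had 52.5, 52, 42 and 57.1 CPM in controls, against 51.3, 34.7, 36.1 and 31.5 CPM in β-tetO-NICD islets (log2 difference −0.41, adjusted p = 0.155), again with library 1 among the controls. Smad1 did not overlap between the groups, yet its range was narrow, from 22.3 to 24.3 CPM and from 26.2 to 27.3 CPM, with a log2 difference of 0.22 (adjusted p = 0.209). Smad9 differed by −0.71 at 15 to 63 counts per library.

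None of the 7 intracellular inhibitors passed. Skil encodes SnoN, a corepressor that binds Smad complexes and is itself a TGF-β target, and came nearest at 42.5, 46.9, 39.6 and 41.7 CPM in controls, against 37.2, 17.5, 17.4 and 14.6 CPM in β-tetO-NICD libraries. The groups did not overlap, with library 1 just under the lowest control. The log2 difference was −0.98 (standard error 0.28, adjusted p = 0.0605). Skil passed the test in 5 of the 20 alternatives tried, among them limma-voom, DESeq2 and the fit without β-tetO-NICD library 1, and its transcript is 6717 bases long. Ski, a related corepressor, had 67.4, 55.4, 48.5 and 51.3 CPM in controls, against 74.7, 54, 56.6 and 39.9 CPM in β-tetO-NICD islets (log2 difference 0.02). Smurf2, a ubiquitin ligase acting on receptors and Smads, had 44.9, 39.5, 36.1 and 45.5 CPM in controls, against 46.3, 27.8, 30 and 25.9 CPM in β-tetO-NICD islets (log2 difference −0.35), and Smurf1 differed by −0.30. The inhibitory Smads, which are induced by the pathway as feedback, differed by 0.41 for Smad6 and 0.17 for Smad7, and Tgif1, a repressor of Smad2, by 0.29.

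Of the 7 extracellular antagonists, counted with the pseudoreceptor Bambi, 5 passed the count minimum and none passed the test. Chrd encodes chordin, which binds BMPs and keeps them from their receptors, and had 9.73, 8.66, 6.29 and 4.42 CPM in controls, against 10.8, 19, 17.8 and 9.82 CPM in β-tetO-NICD islets. Its groups were separated only narrowly, between 9.73 and 9.82 CPM, with a log2 difference of 0.98 (standard error 0.30, adjusted p = 0.0753). Bambi, a receptor-like membrane protein without a kinase, had 50.2, 59.3, 73.4 and 28.3 CPM in controls, against 46.4, 44.6, 36.7 and 52.9 CPM in β-tetO-NICD islets (log2 difference −0.23). Fstl1, a follistatin-like secreted protein, had 21.3, 30.8, 15.6 and 22 CPM in controls, against 32.4, 28, 32.1 and 28.4 CPM in β-tetO-NICD islets (log2 difference 0.43, adjusted p = 0.167). Fst and Fstl3, which bind activins, differed by 0.43 and 0.20. The BMP antagonists Nog and Grem1 were not tested. Nog had 1, 3, 1 and 3 counts in controls and 2, 9, 10 and 7 counts in β-tetO-NICD libraries, and Grem1 had at most 3 counts in any library.

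**Figure D4:**
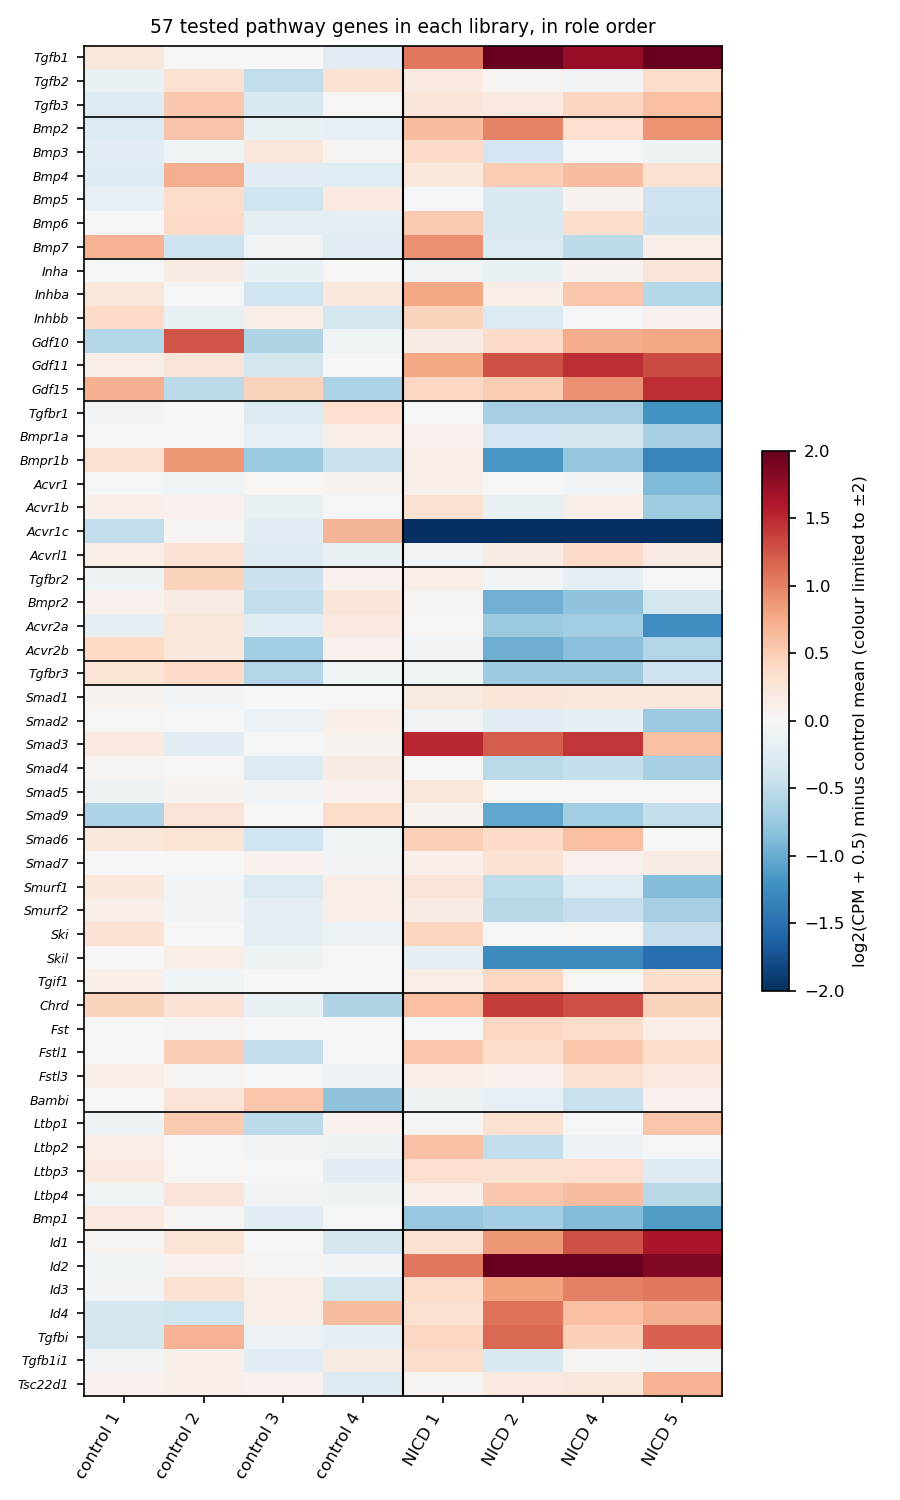
Deviation of the 57 tested pathway genes from their control mean (colour, log2 of CPM + 0.5, limited to ±2) in each library (columns), in role order with black lines between roles. Tgfb1, Gdf11, Smad3 and Id2 are red and Acvr1c and Bmp1 blue in all 4 β-tetO-NICD libraries, whereas most other receptor rows are blue in libraries 2, 4 and 5 and pale in library 1.

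Bmp1 is named after the BMPs but encodes a metalloprotease that cleaves procollagens, chordin and latent TGF-β binding proteins, and it fell. Its levels were 147, 134, 110 and 127 CPM in controls, against 75.7, 80.2, 70.7 and 59.4 CPM in β-tetO-NICD libraries. The groups were well apart, and library 1 was within the range of its group. The means were 129 ± 15.2 and 71.5 ± 8.95 CPM, with a log2 fold change of −0.85 ± 0.15 (SE; adjusted p = 0.0115). Bmp1 (ENSMUSG00000022098) lies on chromosome 14 from 70474558 to 70520234 on the minus strand. After Tsc22d1 it had the highest level per kb of the 59 genes in controls, at 24.0 CPM per kb, and stood at 13.3 CPM per kb in β-tetO-NICD islets. The ratio of Bmp1 to Chrd, its substrate, was 19.2 ± 6.41 in controls and 5.31 ± 1.45 in β-tetO-NICD islets, a ratio chosen after the values were seen and not tested.

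The 4 latent TGF-β binding proteins, which anchor latent TGF-β in the matrix, did not pass, with log2 differences between 0.04 and 0.23. Ltbp3 had 81.8, 72.9, 70.3 and 61 CPM in controls, against 89.4, 88, 90.4 and 59.5 CPM in β-tetO-NICD islets, where library 5 alone was low. Ltbp4 was also lowest in that library, at 46.1 CPM against 73.2 to 104 CPM in the other 3.

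Of the 7 target genes 3 rose (42.9%, beside 4.19% of all tested genes), none fell, and the median log2 difference was 0.82. All 3 were Id genes, and none of the 15 tested targets of the further list below passed. Of these 3 calls, those of Id1 and Id3 were lost in 7 of the 8 fits that left out a library. The Id proteins are helix-loop-helix factors without a DNA-binding domain that block basic helix-loop-helix partners, and are known as BMP targets. Id2 had 9.45, 10.6, 10.4 and 9.66 CPM in controls, against 21.5, 42.1, 44.2 and 37.4 CPM in β-tetO-NICD libraries. The controls lay close together, and even the lowest β-tetO-NICD library was above them, at 21.5 CPM. Its promoter holds the GGCGCC match. The means were 10 ± 0.553 and 36.3 ± 10.3 CPM, with a log2 fold change of 1.86 ± 0.22 (SE; adjusted p = 0.00159). Id2 (ENSMUSG00000020644) lies on chromosome 12 from 25093799 to 25097140 on the minus strand. Of the 57 tested genes it had the highest log2 fold change, followed by Tgfb1.

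Id1 had 6.18, 7.31, 6.01 and 4.59 CPM in controls, against 7.51, 11.2, 15 and 19.4 CPM in β-tetO-NICD libraries. The groups met without overlap between control 2 and library 1. The log2 fold change was 1.14 ± 0.29 (SE; adjusted p = 0.0458), and the gene (ENSMUSG00000042745) lies on chromosome 2 from 152736251 to 152737410 on the plus strand. Id3 had 12.3, 15.9, 13.9 and 9.74 CPM in controls, against 16.7, 22.8, 26.1 and 27.2 CPM in β-tetO-NICD libraries. Library 1 was again the nearest to the controls. The log2 fold change was 0.84 ± 0.21 (SE; adjusted p = 0.0417), and the gene (ENSMUSG00000007872) lies on chromosome 4 from 136143497 to 136145755 on the plus strand. Id4 differed by 0.68 (adjusted p = 0.139) with overlapping groups.

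The calls of Id1 and Id3 depended on which libraries were used. The fit without β-tetO-NICD library 1 was the one of these 8 in which each stayed under 0.05, and they had adjusted p values of up to 0.130 and 0.116 in the others. With the length offset, their log2 fold changes were 0.70 and 0.45 (adjusted p = 0.0745 and 0.102), and their transcripts are short, at 1160 and 1278 bases. Tgfb1, Smad3, Id2, Acvr1c and Bmp1 passed in 8 of 8 such fits and with the offset.

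Tgfbi, a matrix protein induced by TGF-β, differed by 0.82 (adjusted p = 0.107), from 9.28 ± 3.60 to 16.4 ± 4.80 CPM, with control 2 inside the β-tetO-NICD range. Tsc22d1, a TGF-β-stimulated leucine zipper gene and the highest of the 59 genes per kb in controls, had 252, 255, 252 and 198 CPM in controls, against 246, 272, 279 and 383 CPM in β-tetO-NICD islets (log2 difference 0.30, adjusted p = 0.258). Tgfb1i1, a focal adhesion protein induced by TGF-β, differed by 0.02.

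Within libraries of like length trend the size of the difference varied. Since the groups of the 8 called genes do not overlap over the 8 libraries, the sign in any subset is fixed in advance, and the values are a description without a test. Among controls 1, 2 and 4 and β-tetO-NICD library 1, the log2 differences were 1.06 for Tgfb1, 0.65 for Gdf11, 1.49 for Smad3, 1.09 for Id2, 0.32 for Id1 and 0.42 for Id3. Acvr1c and Bmp1 were at −2.18 and −0.84. Among control 3 and β-tetO-NICD libraries 2, 4 and 5, the rising genes were at 1.95, 1.73, 1.10, 1.93, 1.23 and 0.84 in the same order, and Acvr1c and Bmp1 at −2.94 and −0.66. Each comparison has a single library on one side. The 5 libraries with no more than 1 Eif2s3y count were controls 1 and 3 and β-tetO-NICD libraries 1, 2 and 4. In a fit of these 5 alone, none of the 8 called genes passed, beside 0.809% of all tested genes (122 of 15082). Their adjusted p values ran from 0.0536 for Smad3 to 0.334 for Id1. The log2 fold changes there were 1.59 for Tgfb1, 1.72 for Gdf11, 1.36 for Smad3, 1.85 for Id2, 0.88 for Id1, 0.74 for Id3, −2.54 for Acvr1c and −0.77 for Bmp1.

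**Figure D5:**
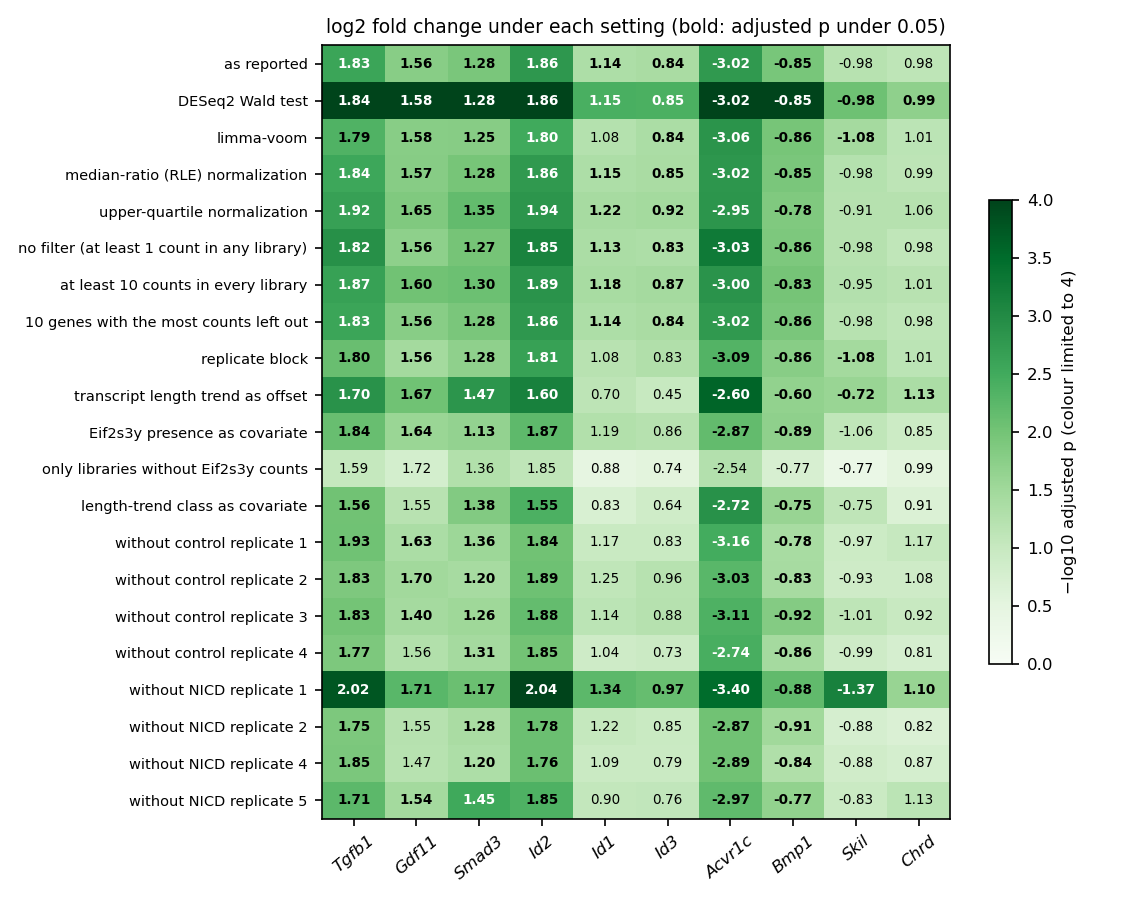
Log2 fold changes of the 8 called genes and of Skil and Chrd (columns) in the reported fit and the 20 alternatives (rows), with bold values where the adjusted p was under 0.05 and colour for −log10 of the adjusted p, limited to 4. Tgfb1, Smad3, Id2, Acvr1c and Bmp1 are bold in all rows but the one with only the libraries of no more than 1 Eif2s3y count. Id1 and Id3 are bold in 7 and 8 of the 20 alternatives.

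Beyond the 59 genes, 78 further genes of the pathway were read from a list of ligands, receptors, antagonists, activators of latent TGF-β, Smad partners and targets. Of these, 54 were tested, 1 rose and 2 fell (5.56%, beside 6.76% of all tested genes). Nbl1, which encodes the BMP antagonist DAN, rose from 17.9 ± 3.51 to 61.8 ± 19.2 CPM (log2 fold change 1.79 ± 0.24, SE, adjusted p = 0.00318). Its controls were at 19, 21, 18.8 and 12.9 CPM, its β-tetO-NICD libraries at 44.1, 86.7, 66.4 and 49.8 CPM, with no overlap. Emilin1, a matrix glycoprotein that restrains the maturation of TGF-β, fell from 133 ± 17.9 to 44.6 ± 16.2 CPM (log2 fold change −1.58, adjusted p = 0.00699). Itgav, the αv integrin subunit that releases TGF-β from its latent complex, fell from 101 ± 17.8 to 52.6 ± 8.69 CPM (log2 fold change −0.94, adjusted p = 0.0161). None of the 15 tested target genes of that list passed, although 14 had positive differences, and none of the 12 tested Smad partners and turnover genes passed.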

How the data were processed

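Islet RNA of 4 control and 4 β-tetO-NICD mice was sequenced as stranded poly(A) libraries. The authors pseudoaligned reads to the GRCm38 transcriptome with Kallisto and deposited whole-number counts per gene symbol, not normalized. The Kallisto version, annotation release and rounding are not given in the sources used here. The authors' deposited comparison (a limma table with log2 fold changes, mean expression, t, p, adjusted p and log odds) was not used. Columns were assigned by name. β-tetO-NICD columns 4 and 5 match the group but no single mouse, since its labels run from 1 to 4. Library pairs of a group differed beyond sampling noise (chi-square of at least 31.5 per gene over genes with at least 20 counts), so each counted as 1 replicate.

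Genes that reached 10 counts in 4 or more of the 8 libraries were scaled by TMM and compared with edgeR 4.0.16 in R 4.3.3 (quasi-likelihood test, no covariate, Benjamini-Hochberg adjustment over all tested genes, threshold 0.05). Adjusted p values come from this test unless named otherwise. The scripts were tested on simulated counts. Alternatives were DESeq2 1.42.0, limma-voom (limma 3.58.1), other scalings and filters, 10 abundant genes left out and a replicate block. Others were an offset for transcript length, Eif2s3y as a covariate, the libraries with no more than 1 count of it, and each library left out. A covariate for the sign of the length trend was added after the data were seen. Coordinates and lengths are from GENCODE M21 (59 of 59 symbols matched), and promoters from RefSeq. At this depth 3 counts, the floor used, equal 0.0996 to 0.151 CPM, for counting error only.

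The 59 genes, their roles and the marker and pathway lists were chosen with earlier results of these data known. Of the 59 genes, full values are given for those with an adjusted p under 0.05 and for the 2 with the highest mean CPM in each role, and the others by range, count or log2 difference. Skil and Chrd, which are also given in full, and the ratios were singled out after their values were seen. Results for some items of the marker and pathway lists are not reported here.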

Additional observations from a re-analysis of the deposited data

Results flagged for a closer look

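Single libraries stood apart from the other 3 of their group, by the gap to the nearest library over the group's range, in 8 of 114 groups of 4 (57 genes in 2 genotypes), where chance gives about 6. Each gap exceeded Dixon's critical value of 0.829.

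Control 2 was the high library in 4 of them. Bmp2 was at 1.14 CPM against 0.415 to 0.514 CPM in the other controls (gap 0.863), Bmp4 at 2.32 against 0.922 to 0.950 CPM (gap 0.981), Gdf10 at 32.1 against 8.55 to 12.4 CPM (gap 0.835) and Ltbp4 at 81.5 against 63.4 to 64.9 CPM (gap 0.920). The summed level of 9 stellate and fibroblast markers was also highest in control 2, at 833 CPM against 246 to 419 CPM in the other controls, and its part in these values was not tested.

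β-tetO-NICD library 1, the one with the length trend of 3 controls, was high for Smad5, at 75.8 against 65.4 to 66.2 CPM (gap 0.917), and for Skil, at 37.2 against 14.6 to 17.5 CPM (gap 0.872). Its sum of 10 acinar markers was also the highest of the group, at 106000 against 29300 to 56200 CPM, and the part of acinar RNA was not tested. β-tetO-NICD library 5 was low for Ltbp3, at 59.5 against 88.0 to 90.4 CPM (gap 0.923). Control 4 was low for Tsc22d1, at 198 against 252 to 255 CPM (gap 0.954).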

How the results depend on the processing

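The 8 called genes had the same direction in all 20 alternatives, which is fixed in advance for those that only leave out libraries, since their groups do not overlap. Of these 160 comparisons, 125 stayed under an adjusted p of 0.05 and 35 did not. Pathway genes called higher numbered 6 as reported. They numbered 0 without the Eif2s3y libraries, which leaves 2 controls and 3 β-tetO-NICD libraries with no more than 1 count of it. With the length-trend covariate added after the data were seen they numbered 3. With 1 library left out they numbered 3 to 8, and 3 without control 4 or β-tetO-NICD library 2 or 4. Those called lower numbered 2 as reported, 0 without the Eif2s3y libraries, and 2 to 11 with 1 library left out, where 11 came without β-tetO-NICD library 1. All tested genes called numbered 1020 as reported, 2739 by DESeq2, 1564 with the length offset, 122 without the Eif2s3y libraries, 608 with the length-trend covariate and 319 to 4954 with 1 library left out (4954 without β-tetO-NICD library 1). The causes of these shifts were not tested.

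With the replicate number as a block, 4 pathway genes were higher and 3 lower, and 970 of all genes were called. The calls of Id1 (adjusted p = 0.0632) and Id3 (0.0518) were lost and Skil (0.0345) was gained. The libraries were not shown to be paired by number: only 1 and 2 are settled in both groups, and same-numbered deviations correlated at 0.31 and −0.12.

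Among the 8 called and 20 other genes followed through all 20 alternatives, signs turned only in genes that were not called. Bmp3 (−0.02 as reported) was at 0.05 with upper-quartile scaling, 0.01 with 10 counts required in every library, 0.27 with the length offset, 0.03 with the length-trend covariate and −0.17 to 0.10 with 1 library left out. Bmp7 was at −0.21 without the Eif2s3y libraries, and at −0.30 to 0.44 with 1 left out. Inha was at −0.32 with the offset and −0.04 to 0.10 with 1 left out, and Bmpr2 at 0.13 with the offset. Ski was at −0.01 by limma-voom, −0.09 with Eif2s3y as a covariate and −0.15 to 0.15 with 1 left out, and Tgfb2 at −0.04 to 0.24 with 1 left out. Upper-quartile scaling moved the median of all genes by 0.08. Depth limits the genes with few counts, such as Nog (1 to 10 per library) and Grem1 (0 to 3).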

Other observations

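Among the 78 further pathway genes, several lay near the threshold. Msx1, a homeobox target of BMPs, was low, with means of 0.606 ± 0.182 in control and 1.21 ± 0.157 CPM (SD, n = 4) in Notch-active islets, and did not pass edgeR's test (adjusted p = 0.0832). Usp15, a deubiquitinase of the pathway, differed by −0.47 (edgeR, adjusted p = 0.0607) and Thbs1, thrombospondin 1, which activates latent TGF-β, by −0.93 (edgeR, adjusted p = 0.0987). Genes singled out here were chosen after their values were seen. Of the 13 antagonists in that list, 11 were tested and 8 had positive differences, but Nbl1 alone passed.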
